A study of Mus musculus with 16 samples.

Results

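The chromatin gene Hmga1 and its near-identical copy Hmga1b were followed across all 16 pancreas libraries. They are the 2 rows of 24019 in the count table that carry these symbols, and both were among the 8236 genes with enough counts to be fitted. They were picked because of their values in these data, so their own levels and fold changes are given as a description, with no test. The libraries came from age-matched littermates aged 6 to 8 weeks on the C57BL/6J strain, with 4 mice in each of 4 groups. WT mice and Adam17 ex/ex mice, homozygous for the hypomorphic Adam17ex allele, received 7 hourly intraperitoneal injections of either 50 µg/kg cerulein or 50 µl phosphate-buffered saline (PBS), and tissue was taken 1 h after the last injection. Cerulein, a cholecystokinin analogue, overstimulates the acinar cells and gives an acute pancreatitis. All cells of the Adam17 ex/ex mice carry the allele, so no cell type is singled out by the model. The labels count 0 males in WT PBS, 1 in WT cerulein and 2 in each Adam17 ex/ex group, and sex was a term of every fit.

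HMGA1 is a small nuclear protein that binds the minor groove of AT-rich DNA through short basic motifs called AT-hooks, bends it, and competes there with linker histone H1. It is abundant in embryonic and dividing cells, low in most adult tissues, and often raised in pancreatic cancer. Hmga1b is an intronless copy of Hmga1 on another chromosome, annotated as protein coding. ADAM17 is the protease that frees membrane-bound ligands of the epidermal growth factor receptor, among other substrates.

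Hmga1 (ENSMUSG00000046711) spans chr17:27556497-27563674 and Hmga1b (ENSMUSG00000078249) spans chr11:120762794-120764419, both on the plus strand of GRCm38. In the GENCODE M21 annotation the Hmga1 transcript that shares most bases with Hmga1b has 5 exons, and Hmga1b has 1. Over 1602 aligned bases they differed at 3 positions, an identity of 99.81%, and the 321 coding bases before the stop codon were identical. The 3 substitutions, counted from base 1 of the aligned stretch with the Hmga1 base first, were A657G, A784G and G1246T. All 3 lie in the 3' UTR, 946, 819 and 357 bases from the 3' end. The 30 bases around each are shown because they are the letters by which a read can be assigned to 1 copy, with the differing base in capitals.
Hmga1, A657G: ttagccgcagcccgAcctgctgcgcacctc
Hmga1b, A657G: ttagccgcagcccgGcctgctgcgcacctc
Hmga1, A784G: ccttaaggggccccAgccccatctcactct
Hmga1b, A784G: ccttaaggggccccGgccccatctcactct
Hmga1, G1246T: ggttgtgttgttttGtttttgttccatgtt
Hmga1b, G1246T: ggttgtgttgttttTtttttgttccatgtt

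The libraries were primed on the poly(A) tail and read with 101 bp in the sense direction. Of 1502 stretches of 101 bases along the alignment, 1199 (79.8%) were the same in both copies, and of the 400 that lie in the last 500 bases, 299 (74.8%) were the same. A read from such a stretch fits both places equally well, so the split of counts between the rows is uncertain and their sum is given throughout. In a search of all annotated mouse transcripts with the aligned stretch, the matching genes were Hmga1, Hmga1b and, over 102 bases in the antisense direction, AI413582.

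**Figure D1:**
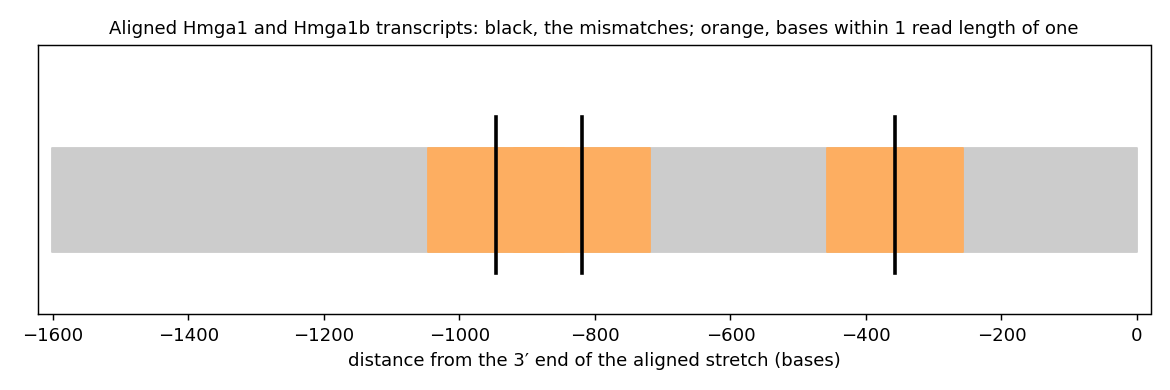
Alignment of the Hmga1 and Hmga1b transcripts against the distance from their shared 3' end in bases; black lines are the 3 mismatches and orange marks the bases within 1 read length of a mismatch. The mismatches stand 946, 819 and 357 bases from the 3' end, so that a read from the last stretch carries none.

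The DNA-binding part of the protein is spelled identically in both copies. The coding stretches around the cores of the 3 AT-hooks are shown for Hmga1, with the codons of each core in capitals, at codons 26 to 29, 58 to 61 and 84 to 87 of 107.
AT-hook 1: aagcgaggcCGGGGCAGGCCAcgcaagcag
AT-hook 2: aagagacctCGGGGCCGACCAaagggaagc
AT-hook 3: aggaaaccaAGGGGCAGACCCaagaaactg
A shorter annotated isoform lacks 33 coding bases and has 96 codons. Counts from the 3' end do not tell the isoforms apart.

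Both copies also share a match to the seed of the let-7 microRNAs, a family known to repress HMGA genes, 377 bases from the 3' end. Mature let-7a-5p from RefSeq, with its seed (bases 2 to 8) in capitals, is shown above the site in each copy, where the 7 complementary bases are in capitals. Of 10 let-7 names of that arm in the table, 9 have this seed. The sites lie at chr17:27563292-27563298 and chr11:120764013-120764019, just before the third mismatch.
let-7a-5p: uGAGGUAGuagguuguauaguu
Hmga1 site: ctcctctgttcacaaaCTACCTCtggacgg
Hmga1b site: ctcctctgttcacaaaCTACCTCtggacgg
MicroRNAs are not counted in these libraries, and the match is a description of letters.

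Upstream of the first exon the copies share little: the longest run of letters shared by the 250 bases before their RefSeq start sites is 7. The sequences are shown because the copies, alike in transcript, sit behind different DNA. Most stretches of a read's length fit both copies, so the likeness of their values does not show that both respond. For Hmga1 the window ends where its first annotated exon begins (chr17:27556324-27556496, plus strand, RefSeq on GRCm38.p6) and has 71.1% G and C. For Hmga1b (chr11:120762544-120762793, plus strand) it has 49.6%, and capitals mark a match to the AP-1 letters TGANTCA.
Hmga1 upstream: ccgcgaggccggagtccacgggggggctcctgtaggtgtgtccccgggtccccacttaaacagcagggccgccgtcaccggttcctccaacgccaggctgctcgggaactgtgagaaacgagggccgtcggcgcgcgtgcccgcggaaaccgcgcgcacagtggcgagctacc
Hmga1b upstream: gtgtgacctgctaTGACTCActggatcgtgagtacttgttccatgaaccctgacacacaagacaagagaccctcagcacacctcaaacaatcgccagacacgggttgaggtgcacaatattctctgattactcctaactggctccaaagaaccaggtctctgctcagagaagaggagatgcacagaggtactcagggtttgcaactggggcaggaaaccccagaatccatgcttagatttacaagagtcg
In windows of 300 bases, from 250 before to 50 after the start, both strands were searched. RefSeq gives 2 such windows for Hmga1, and only that of the transcript most like Hmga1b was used here. The AP-1 letters were found 1 time for Hmga1b and 0 times for Hmga1, and in 7.81% of 32851 such windows over all genes. The GC box GGGCGG was found 4 times for Hmga1, all outside the stretch printed, and 0 times for Hmga1b, against 35.7% of windows with at least 1. CCAAT stood 1 time in the Hmga1b window and 0 times in that of Hmga1 (37.4% of windows). The E-box CACGTG (7.15%), TATAAA (13.6%) and the heat shock element (0.603%) were in neither.

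Sequencing depth was 455547 to 1476159 UMIs (unique molecular identifiers, each standing for 1 captured molecule) per library. Libraries 1 to 3 of Adam17 ex/ex PBS were the shallow ones, with up to 9.02% of UMIs on the ribosomal RNA gene CT010467.1, against at most 5.04% in the other groups. For Adam17 itself, 41 UMIs were counted in the 4 WT PBS libraries, 68 in WT cerulein, 10 in Adam17 ex/ex PBS and 15 in Adam17 ex/ex cerulein. On the log2 scale Adam17 ex/ex differed by -2.05 ± 0.40 (SE) under cerulein (edgeR, adjusted p = 0.00138) and by -1.21 ± 0.49 under PBS (adjusted p = 0.21). A 3' tag need not cover the altered part of the allele, so this checks the labels in part only. The labels name 4 replicates a group and call the animals littermates, so p-values measure the spread between these libraries.

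Hmga1 was all but silent in untreated WT pancreas and high in every WT mouse given cerulein. It had 2, 10, 8 and 0 UMIs in WT PBS libraries 1 to 4 and 201, 141, 184 and 230 in WT cerulein libraries 1 to 4. Scaled with TMM factors to counts per 1000000 UMIs (CPM), that was 4.55 ± 4.03 CPM (SD, n = 4) against 165 ± 26.4. The lowest treated library stood at 132 CPM and the highest control at 8.40, and the control with no UMI could hold up to 3.68 CPM, the value of 3 UMIs in it.

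Hmga1b moved the same way. Its UMIs were 9, 16, 10 and 6 in WT PBS and 258, 205, 242 and 273 in WT cerulein, or 10.1 ± 1.93 CPM (SD, n = 4) and 215 ± 27.9 CPM. All 4 treated libraries lay above all 4 controls for each copy, as did 19.2% of all genes tested. That contrast was used to pick the genes, and nothing is read from the share.

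Both copies stayed near their untreated level in Adam17 ex/ex mice given cerulein. Hmga1 had 4, 5, 9 and 6 UMIs in Adam17 ex/ex PBS and 14, 13, 13 and 20 in Adam17 ex/ex cerulein, or 11.9 ± 5.02 and 13.9 ± 1.76 CPM (SD, n = 4). Hmga1b had 2, 3, 18 and 17 UMIs, then 21, 15, 16 and 26, or 16.57 ± 14.04 and 18.1 ± 3.68 CPM. The ranges of the treated and untreated Adam17 ex/ex libraries overlapped for each copy. No Adam17 ex/ex cerulein library came within reach of a WT cerulein library, the highest for the sum being 36.9 CPM and the lowest WT one 305.

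**Figure D2:**
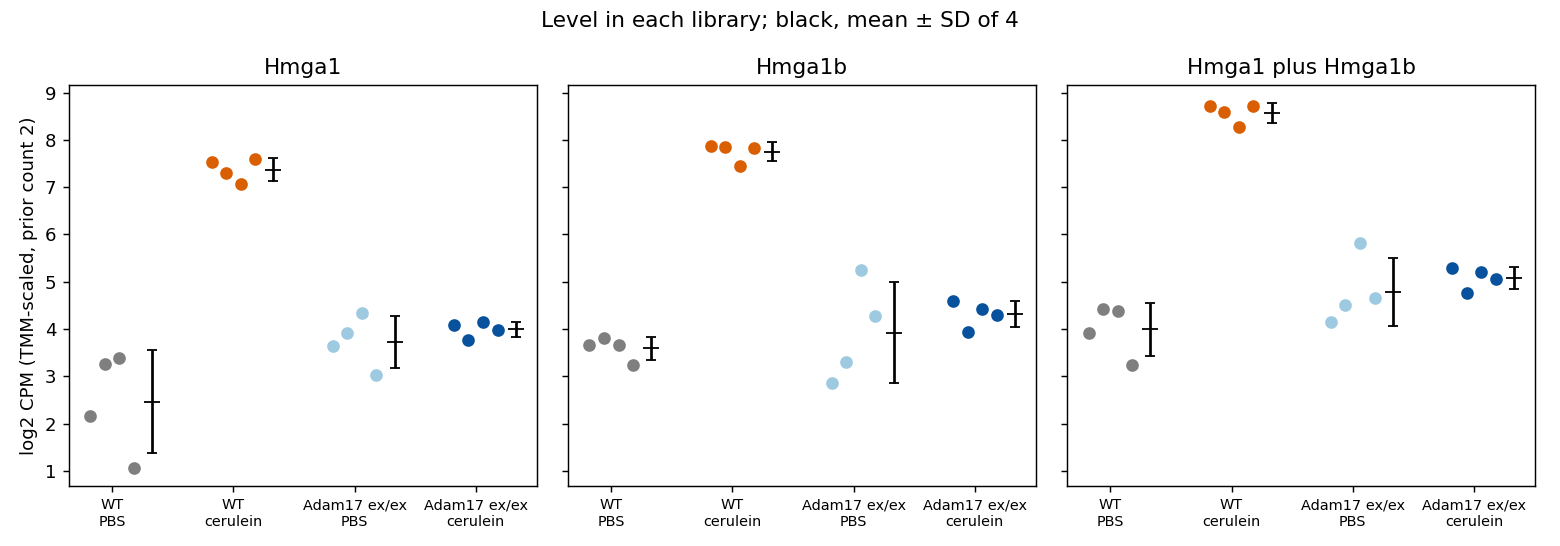
Level of Hmga1, Hmga1b and their sum in log2 CPM (prior count 2) in each library of the 4 groups; points are libraries and black bars the mean ± SD of 4. The 4 WT cerulein libraries stand far above the other 12, which lie in 1 low band.

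The sum of both copies was 14.6 ± 5.67 CPM in WT PBS, 28.4 ± 17.5 in Adam17 ex/ex PBS, 32.0 ± 5.27 in Adam17 ex/ex cerulein and 380 ± 52.0 in WT cerulein (SD, n = 4 each). In that order, WT PBS (7.35 to 19.4 CPM) and Adam17 ex/ex PBS (15.6 to 54.3) overlapped, as did the 2 Adam17 ex/ex groups (24.9 to 36.9 under cerulein), while the step to WT cerulein (305 to 416) was beyond any overlap. The treated Adam17 ex/ex libraries held 6.55% to 9.72% of the WT cerulein mean. Their lowest value was above the highest WT PBS library, a contrast that mixes genotype and treatment, and Adam17 ex/ex PBS itself reached 54.3 CPM.

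Fitted over all 16 libraries, the log2 fold change with cerulein in WT was 4.96 ± 0.34 (SE) for Hmga1, 4.34 ± 0.29 for Hmga1b and 4.60 ± 0.28 for the sum, or 24.2-fold. Among 8236 genes Hmga1 stood 8th and Hmga1b 21st from the top. In Adam17 ex/ex the changes were 0.33 ± 0.42, 0.04 ± 0.35 and 0.16 ± 0.30, for Hmga1, Hmga1b and the sum. These last values depended on Adam17 ex/ex PBS library 3, which held 27 of the group's 64 UMIs. Without it, the change was 0.67 for Hmga1, 0.65 for Hmga1b and 0.68 for the sum.

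Between genotypes under cerulein, Adam17 ex/ex was lower by a log2 fold change of -3.61 ± 0.29 for Hmga1, -3.59 ± 0.26 for Hmga1b and -3.61 ± 0.26 for the sum, 12.2-fold. These were the 4th and 5th lowest values of 8236. Leaving out any 1 library kept the sum between -3.73 and -3.49. All 4 Adam17 ex/ex libraries lay below all 4 WT libraries for each copy, as did 7.92% of all genes, a share from which nothing is read either. In bulk tissue, fewer cells that express a gene and less RNA per cell cannot be told apart.

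Under PBS the Adam17 ex/ex mice had, if anything, the higher values: 1.02 ± 0.52 for Hmga1, 0.71 ± 0.40 for Hmga1b and 0.83 ± 0.35 for the sum. The groups overlapped, and with 61 and 64 UMIs of both copies in 4 libraries each, depth limits this comparison. Without Adam17 ex/ex PBS library 3 the values were 0.23 for Hmga1b and 0.45 for the sum, and without WT PBS library 4 that of Hmga1 was 0.66. The difference between the 2 cerulein responses, the interaction of genotype and treatment, was -4.64 ± 0.61, -4.30 ± 0.48 and -4.44 ± 0.42 on the log2 scale.

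The UMIs assigned to the copies kept about the same proportion wherever there were enough to see it. The transcripts of the copies are 1681 and 1626 bases long, but UMI counts from the 3' end are not expected to scale with length. Hmga1b took 978 of 1734 UMIs in WT cerulein, a share of 56.4% (exact binomial 95% interval 54.0% to 58.8%), and 78 of 138 in Adam17 ex/ex cerulein, 56.5% (47.8% to 64.9%). The share was 67.2% (54.0% to 78.7%) in WT PBS and 62.5% (49.5% to 74.3%) in Adam17 ex/ex PBS. Intervals cover counting error only. How the authors' counting placed reads that fit both copies is not given in the sources used here, and the share may depend on it.

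**Figure D3:**
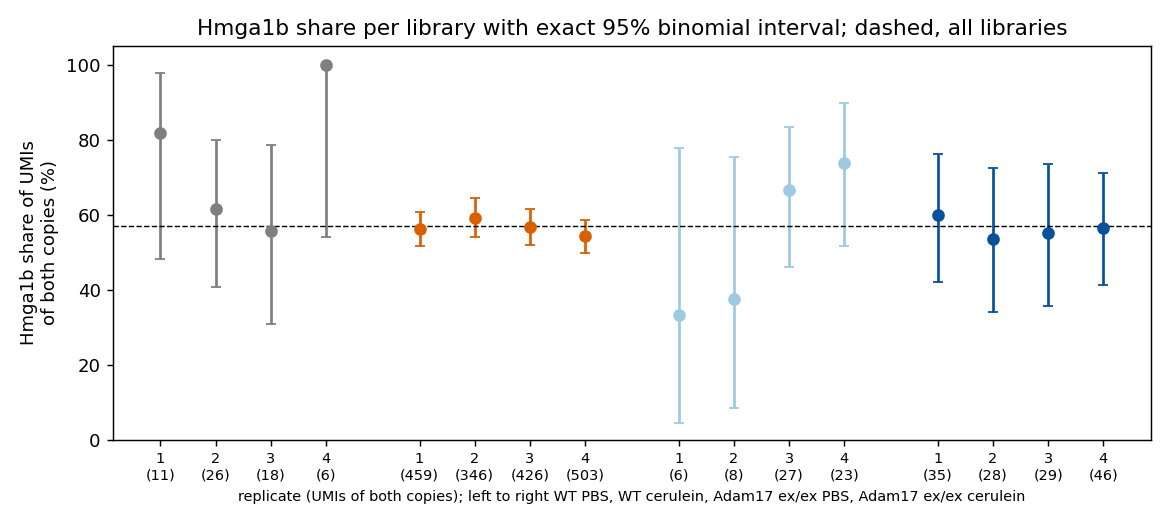
Share of Hmga1b among the UMIs of both copies in percent, per library, with exact 95% binomial intervals; numbers in brackets are the UMIs of both copies. The WT cerulein libraries sit between 54.3% and 59.2%, near the dashed line of all libraries at 56.9%, and the PBS intervals are wide.

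Genes around Hmga1 were counted to see which changed with it. Gm49774, an antisense RNA on the minus strand (chr17:27545707-27556518), starts inside the first exon of Hmga1, overlaps it by 22 bases, and covers the upstream stretch shown above. WT cerulein libraries held 44, 26, 90 and 24 of its UMIs, 184 in all, against 3 over the WT PBS group, 2 over Adam17 ex/ex PBS and 7 over Adam17 ex/ex cerulein. The treated WT libraries stood above every other library. It rose with cerulein in WT (log2 fold change 5.42 ± 0.64 SE, edgeR adjusted p = 6.42e-07) and was lower in Adam17 ex/ex under cerulein (-4.51 ± 0.55, adjusted p = 1.09e-05). The interaction, -4.67 ± 2.03, rests on 3 and 2 UMIs in the PBS groups. The strand used in counting is not given, but only 22 bases are shared with Hmga1.

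At the other end, AI413582 on the minus strand (chr17:27563573-27565756) overlaps the last 102 bases of Hmga1, where 3' reads fall. Its UMIs went from 76 to 188 with cerulein in WT and from 40 to 81 in Adam17 ex/ex, where the PBS libraries were shallower. Scaled for depth, its Adam17 ex/ex values were 14.3 ± 9.71 CPM under PBS and 18.7 ± 2.81 under cerulein (SD, n = 4). The log2 fold change there was 0.17 ± 0.40 (edgeR adjusted p = 0.78). AI413582 rose in WT (1.17 ± 0.33, edgeR adjusted p = 0.00595) and was lower in treated Adam17 ex/ex than in treated WT (-1.09 ± 0.33, adjusted p = 0.0347, lost in 7 of 30 alternatives). Those include leaving out WT cerulein library 1, 2 or 4 or Adam17 ex/ex cerulein library 1, 2 or 4, with adjusted p up to 0.126. Whether counting used the strand is not given in the sources used here, so a part of its UMIs cannot be told apart from Hmga1.

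None of the other neighbours tested rose in WT. Nudt3, 15.7 kb beyond Hmga1, had log2 fold changes of -0.48 ± 0.27 with cerulein in WT and -0.41 ± 0.28 between genotypes under cerulein (adjusted p = 0.155 and 0.399), and the pseudogene Gm9703 had -0.19 ± 0.21 and 0.11 ± 0.21. Around Hmga1b, Gps1 did not pass in either comparison (-0.09 ± 0.27 in WT, adjusted p = 0.826). Rfng, which encodes a Notch-modifying enzyme, fell in WT (-1.69 ± 0.28, adjusted p = 4.87e-05). Dcxr, a carbonyl reductase gene, fell in WT (-2.07 ± 0.36, adjusted p = 6.9e-05) and was higher in Adam17 ex/ex under cerulein (1.42 ± 0.37, adjusted p = 0.0162). That last call was lost without WT cerulein library 3 (adjusted p = 0.0723) or Adam17 ex/ex cerulein library 4 (0.0622).

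Genes with the most similar profile were ranked by the root mean square difference of log2 CPM over the 16 libraries, each gene centred on its own mean, where 0 would be identical. The median over 8235 genes was 1.95. Hmga1b was nearest at 0.695, a likeness that cannot be told apart from reads that fit both copies. Next came Cldn4 (0.743), a tight junction gene, Gm49774 (0.824), Slc26a9 (0.840), an anion transporter gene, and the chaperone genes Hspa1b (0.847) and Hspb1 (0.854). Krt19 (0.862), a duct keratin, Nrip3 (0.914), Eppk1 (0.915) and Hspa1a (0.919), a near-identical copy of Hspa1b, completed the 10. Since they were picked by this likeness, their values are a description.

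Within the 10, the Adam17 ex/ex mice differed in how much response was left. Cldn4 stood at 5.68 ± 0.79 CPM in WT PBS, 147 ± 42.9 in WT cerulein, 6.73 ± 5.04 in Adam17 ex/ex PBS and 10.5 ± 5.40 in Adam17 ex/ex cerulein (SD, n = 4 each). Hspa1b likewise went from 5.01 ± 2.98 to 166 ± 56.4 CPM in WT and from 8.59 ± 4.74 to 8.39 ± 2.81 in Adam17 ex/ex. Both kept to the Hmga1 pattern, in which treated and untreated Adam17 ex/ex libraries overlap. Hspb1, by contrast, went from 19.5 ± 6.47 to 63.8 ± 6.15 CPM in Adam17 ex/ex and Krt19 from 58.7 ± 13.9 to 151 ± 28.7, with every treated library above every untreated one (13.8% of all genes), while their WT cerulein means were 310 ± 34.9 and 554 ± 87.3.

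**Figure D4:**
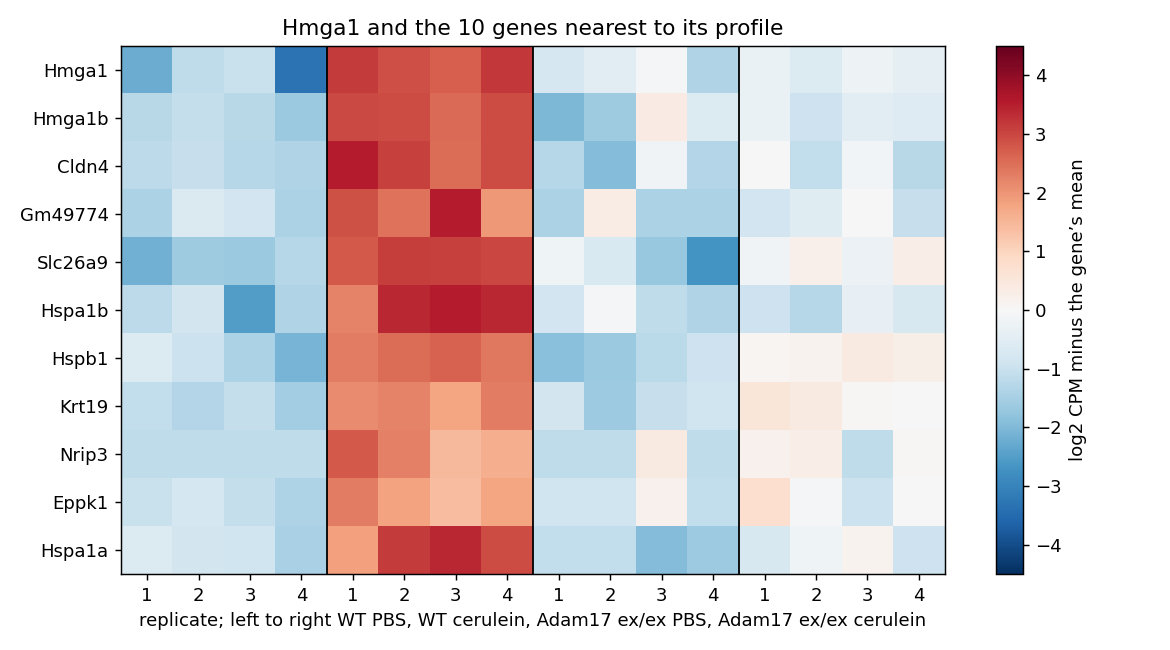
Centred log2 CPM of Hmga1 and the 10 genes nearest to its profile (rows) in the 16 libraries (columns); red is above and blue below the gene's own mean. The 4 WT cerulein libraries are red in every row, and Hspb1 and Krt19 are paler in Adam17 ex/ex cerulein than in Adam17 ex/ex PBS.

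Across the wider family of high mobility group proteins, other architectural chromatin proteins, few members changed. In WT, 3 of 18 tested members rose with cerulein and 1 fell, against 41.1% of all genes called (19.8% higher and 21.3% lower), and the median log2 fold change was 0.12 (all genes -0.04). Hmgb3 rose from 4.00 ± 1.50 to 19.2 ± 4.52 CPM (log2 fold change 2.38 ± 0.43, edgeR adjusted p = 0.000129), as did Sox9, a duct and progenitor transcription factor with an HMG box (1.02 ± 0.20), and Ubtf, the RNA polymerase I factor (0.96 ± 0.21). Hmgn5, a nucleosome-binding member, fell by 2.03 ± 0.25 on the log2 scale. The common members Hmgb1 (-0.16 ± 0.25), Hmgb2 (0.66 ± 0.50), Hmgn1 (0.27 ± 0.23) and Hmgn2 (-0.78 ± 0.45) did not pass.

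In Adam17 ex/ex 1 of the 18 rose and 5 fell with cerulein, against 30.3% of all genes called (14.1% higher and 16.2% lower). Hmgb1 fell there (-1.28 ± 0.27, edgeR adjusted p = 0.00115), from 51.6 ± 12.3 to 20.7 ± 7.04 CPM, whereas its WT groups stood at 36.3 ± 6.83 and 32.4 ± 9.93. The difference between the genotypes' responses did not pass for Hmgb1 (interaction -1.12 ± 0.37, adjusted p = 0.0749). Between genotypes under cerulein, Hmgn5 was higher (0.88 ± 0.27, adjusted p = 0.0389) and Sox9 lower (-0.70 ± 0.20, adjusted p = 0.0238) in Adam17 ex/ex, 2 of 18 against 9.7% of all genes (5.85% higher and 3.85% lower). The Hmgn5 call was lost in 11 of 30 alternatives (adjusted p up to 0.176), among them leaving out WT PBS library 1, WT cerulein library 1, 3 or 4, or Adam17 ex/ex cerulein library 1, 3 or 4. The Sox9 call was lost in 5 (up to 0.229), among them leaving out WT cerulein library 1 or 4 or Adam17 ex/ex cerulein library 2 or 4. Under PBS, 0 of 18 members passed by edgeR (1.36% of all genes called), with 2 at an unadjusted p under 0.05, and 0 passed by DESeq2 or limma-voom. For the interaction 0 of 18 passed by edgeR (6.02% of all genes), with 4 at an unadjusted p under 0.05, 0 by DESeq2 and 1, lower, by limma-voom. The fall of 5 members in Adam17 ex/ex shrank to 3 without Adam17 ex/ex PBS library 3 or 4 and to 1 without libraries 1 to 3 of that group. Hmga2, the closest relative, was not analysed here, and Hmgn3, with 78 UMIs in all, had too few to test.

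Linker histones, with which HMGA1 competes for DNA, and replacement histones moved in both directions. In WT, 5 of 11 tested rose and 3 fell (19.8% and 21.3% of all genes), with a median log2 fold change of 0.58. The linker histone genes H1f2 (2.41 ± 0.30, edgeR adjusted p = 1.12e-06), H1f3 (2.12 ± 0.45) and H1f0 (0.70 ± 0.21) rose, as did H2ax and H3f3b, while the variant genes H2az2 (-2.05 ± 0.39), H2az1 (-0.85 ± 0.21) and H3f3a (-0.73 ± 0.21) fell. H1f2 was the 1 member of 11 that passed between genotypes under cerulein, against 9.7% of all genes. That count was 3 without Adam17 ex/ex cerulein library 1 and 2 without WT PBS library 2 or Adam17 ex/ex PBS library 1, 3 or 4, and H1f0 (-0.63 ± 0.20, edgeR adjusted p = 0.0511) passed in 15 of 30 alternatives. H1f2 stood at 52.0 ± 24.7 CPM in WT PBS, 275 ± 71.9 in WT cerulein, 44.9 ± 17.6 in Adam17 ex/ex PBS and 97.4 ± 27.6 in Adam17 ex/ex cerulein, a genotype difference of -1.49 ± 0.27 (adjusted p = 0.000861). Its own interaction did not pass (adjusted p = 0.0834). A poly(A)-primed library sees only the histone RNAs that carry a tail.

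Of the transcription factors reported to act upstream of Hmga1, those called between genotypes under cerulein were all higher in Adam17 ex/ex. In WT, 6 of 12 tested passed, all higher with cerulein (19.8% of all genes). Rela, the p65 subunit of NF-κB, rose by 2.65 ± 0.23 on the log2 scale (adjusted p by edgeR 5.43e-09), and the AP-1 genes Junb by 2.90 ± 0.28, Jun by 2.30 ± 0.36, Jund by 0.90 ± 0.21, Fosl2 by 1.26 ± 0.37 and Fos by 2.13 ± 0.75. The Adam17 ex/ex mice had 6 that rose and 1 that fell (14.1% and 16.2% of all genes), with Junb at 2.46 ± 0.31, Rela at 2.07 ± 0.24 and Jun at 1.69 ± 0.34. Between genotypes under cerulein 3 of 12 passed, all higher in Adam17 ex/ex (5.85% of all genes): Jund (1.01 ± 0.19, adjusted p = 0.00132), Fos (1.89 ± 0.46, adjusted p = 0.00905) and Jun (1.07 ± 0.31, adjusted p = 0.0283). The Jun call was lost in 9 of 30 alternatives, among them leaving out any 1 of the 4 WT cerulein libraries or Adam17 ex/ex cerulein library 1 or 3, and the Fos call without Adam17 ex/ex cerulein library 1 (adjusted p = 0.0925). Jun in that group ranged from 93.3 to 324 CPM. Under PBS, too, Jun was higher in Adam17 ex/ex (1.68 ± 0.41, adjusted p = 0.0432), the 1 call of 12 there (1.36% of all genes), lost in 15 of 30 alternatives. Those include leaving out any 1 WT PBS library, WT cerulein library 1, 2 or 3, Adam17 ex/ex PBS library 2 or 3 or Adam17 ex/ex cerulein library 2 or 3. For the interaction 0 of 12 passed by edgeR, DESeq2 or limma-voom, with 1 at an unadjusted p under 0.05 by edgeR. The Fos call in WT was lost without WT PBS library 3 or 4 or WT cerulein library 1 or 3.

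Myc, which activates Hmga1 in dividing cells, had log2 fold changes of -0.35 ± 0.39 with cerulein in WT and 0.22 ± 0.40 between genotypes under cerulein, neither past the test. Sp1, a GC box factor, had 0.46 ± 0.22 and 0.10 ± 0.21, also short of the test. In Adam17 ex/ex, Sp1 rose with cerulein (0.67 ± 0.24, edgeR adjusted p = 0.04), a call lost in 10 of 30 alternatives. Those include leaving out PBS library 1 or 4 or cerulein library 2 or 4 of that genotype. Fosl1, another AP-1 gene, had too few UMIs to test, with 2 in WT PBS, 38 in WT cerulein, 0 in Adam17 ex/ex PBS and 22 in Adam17 ex/ex cerulein. Of the let-7 pathway and mRNA-binding list, 2 of 8 members could be tested. Ago2, which carries microRNAs, rose in WT (0.79 ± 0.20, edgeR adjusted p = 0.00308) and in Adam17 ex/ex (1.02 ± 0.21, adjusted p = 0.000965).

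**Figure D5:**
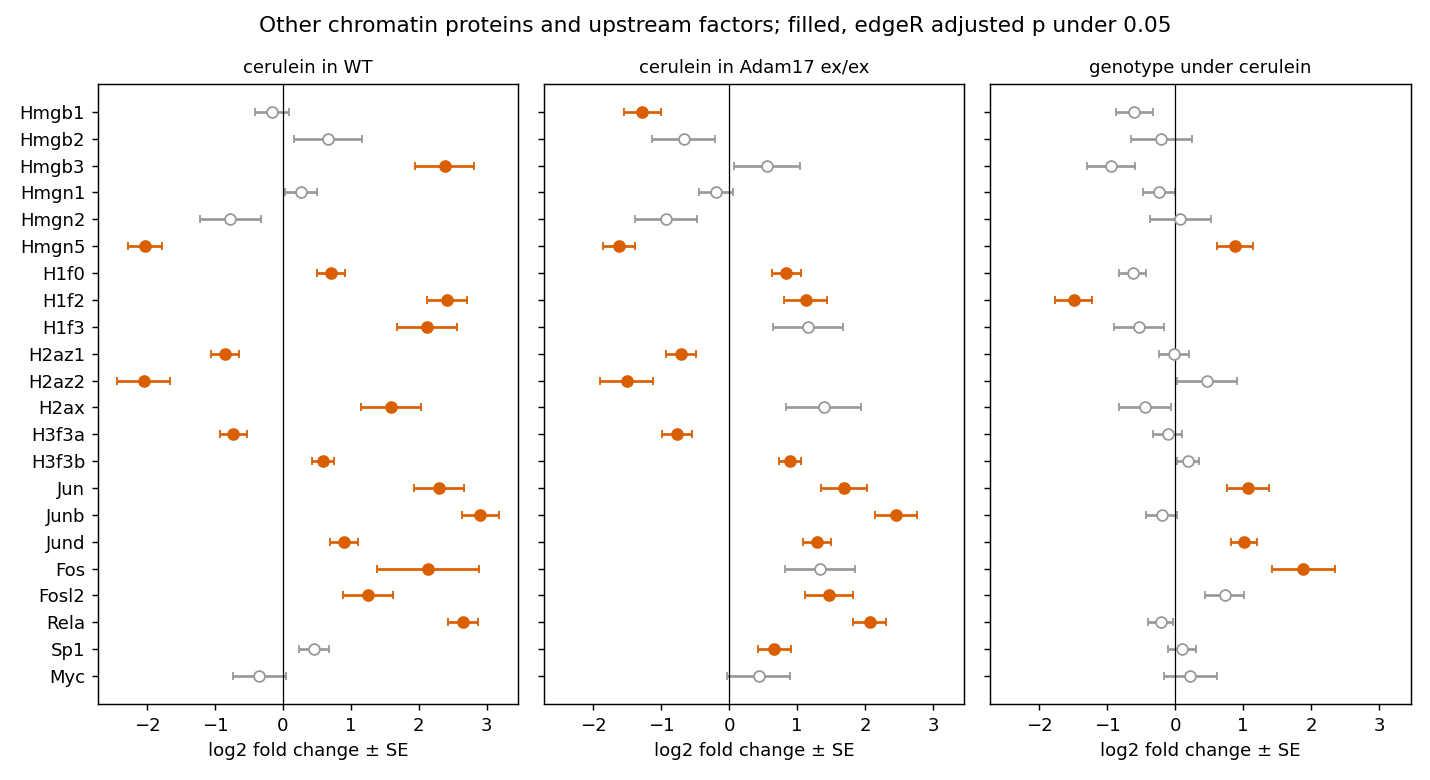
Log2 fold change ± SE of other chromatin proteins and of factors upstream of Hmga1 with cerulein in WT, with cerulein in Adam17 ex/ex, and in Adam17 ex/ex against WT under cerulein; filled orange points passed the edgeR test at an adjusted p under 0.05. Jun, Jund and Fos lie to the right in the last panel and H1f2 to the left.

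Of genes that other studies have reported as targets of HMGA1, 10 could be tested, and 6 passed in WT against 41.1% of all genes. There 4 rose (Cdh1 by 3.25 ± 0.19, Slc2a1 by 2.37 ± 0.33, Igfbp3 by 1.70 ± 0.31 and Stat3 by 0.94 ± 0.20 on the log2 scale) and 2 fell. In Adam17 ex/ex, against 30.3% of all genes called, 3 rose and 3 fell (1 fell without Adam17 ex/ex PBS library 3), with the adhesion gene Cdh1 at 2.65 ± 0.19, the glucose transporter gene Slc2a1 at 2.88 ± 0.45 and Stat3 at 1.20 ± 0.21. Between genotypes under cerulein 0 of 10 passed by edgeR (9.7% of all genes called), DESeq2 or limma-voom, and 3 had an unadjusted p under 0.05 by edgeR. Cdh1 stood there at -0.39 ± 0.18 and Stat3 at 0.42 ± 0.18 on the log2 scale.

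Of 17 SWI/SNF subunits tested, which remodel nucleosomes, 2 passed in WT (41.1% of all genes called) and 3 in Adam17 ex/ex (30.3%). Phf10 rose in WT (1.27 ± 0.21, edgeR adjusted p = 4.08e-05) and Smarca2, an ATPase, fell (-2.05 ± 0.30, adjusted p = 9.04e-06), and both did so in Adam17 ex/ex (1.49 ± 0.21 and -2.22 ± 0.28). Arid1a fell in Adam17 ex/ex (-0.79 ± 0.22, adjusted p = 0.00873), a call lost without PBS library 4 or cerulein library 4 of that genotype. Under cerulein 1 of 17 passed between genotypes (9.7% of all genes), Arid1b, higher in Adam17 ex/ex (0.87 ± 0.25, adjusted p = 0.0263) and lost without WT cerulein library 1, 2 or 3 or Adam17 ex/ex cerulein library 4.

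Of 12 genes for cohesin, CTCF and topoisomerases, which hold or untwist chromatin, 1 passed in WT, Top1 (0.48 ± 0.17, edgeR adjusted p = 0.0245), against 41.1% of all genes. It was lost without WT PBS library 2 (adjusted p = 0.0616) or WT cerulein library 3 (0.118). The Adam17 ex/ex mice had 2 calls (30.3% of all genes), Top2b (-0.91 ± 0.31, adjusted p = 0.0271) and the cohesin release factor Wapl (0.59 ± 0.20, adjusted p = 0.0317). Top2b was lost without Adam17 ex/ex PBS library 1, 2 or 3 or cerulein library 2, 3 or 4, and Wapl without PBS library 3 or 4 or cerulein library 2. Under cerulein 1 of 12 passed between genotypes (9.7% of all genes), the cohesin subunit Stag2 (0.84 ± 0.26, adjusted p = 0.0413), lost in 12 of 30 alternatives. Those include leaving out WT PBS library 1, WT cerulein library 1, 3 or 4 or any 1 Adam17 ex/ex cerulein library.

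Cell division genes, with which HMGA1 often rises, were scarce. Of 24, 5 could be tested. In WT 1 of the 5 passed, against 41.1% of all genes called (21.3% lower). This was Ccnd1, a cyclin gene, which was lower (log2 fold change -0.63 ± 0.24 SE, edgeR adjusted p = 0.0341). That call was lost in 17 of 30 alternatives, among them leaving out any 1 of WT PBS libraries 1 to 3, WT cerulein libraries 1, 3 and 4, and Adam17 ex/ex libraries 2 and 3 under PBS or 2 and 4 under cerulein. Mki67, a marker of cycling cells, had 6 UMIs without and 7 with cerulein in WT, and 28 and 9 in Adam17 ex/ex. The summed level of the list was 102 to 173 CPM in WT PBS and 111 to 138 in WT cerulein, so the ranges overlapped. In Adam17 ex/ex it was 132 to 260 CPM under PBS, where libraries 1 to 3 were shallow, and 101 to 126 under cerulein. Ccnd1 alone stood there at 53.3 ± 14.6 and 23.9 ± 5.24 CPM (SD, n = 4), so the sum need not speak for the rest of the list. Ccnd1 fell with cerulein in Adam17 ex/ex (-1.16 ± 0.23, edgeR adjusted p = 0.000559), the 1 call of 5, against 30.3% of all genes called (16.2% lower).

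Most tested genes of the duct marker list rose with cerulein in WT and were lower in treated Adam17 ex/ex mice. In WT, 8 of 10 tested rose and 1 fell (19.8% and 21.3% of all genes). Under cerulein 8 were lower and 2 higher in Adam17 ex/ex (3.85% and 5.85% of all genes). Their summed level was 942 to 1075 CPM in WT PBS, 8936 to 12740 in WT cerulein, 1182 to 1288 in Adam17 ex/ex PBS and 4011 to 5597 in Adam17 ex/ex cerulein, and 0 of 14 markers were at 0 in any group. The treated Adam17 ex/ex range lay above the untreated one for the summed duct markers, as it did for 13.8% of single genes. For each Hmga1 copy the 2 ranges overlapped. Much of the duct marker sum was Krt8 and Krt18, at 5269 ± 929 and 3805 ± 707 CPM in WT cerulein (SD, n = 4). In Adam17 ex/ex cerulein they stood at 3032 ± 618 and 1607 ± 216 CPM, so the sum is largely that of 2 keratins and does not measure duct cells. For single markers, Krt8 rose in Adam17 ex/ex by 2.71 ± 0.21 (edgeR adjusted p = 4.42e-09) and Krt19 by 1.34 ± 0.21 (adjusted p = 5.3e-05). Acinar markers, which define the bulk of the tissue, made up 17.8% to 28.3% of the UMIs of each library. Among them 9 of 17 fell and 1 rose in WT (21.3% and 19.8% of all genes), and 5 were called between genotypes under cerulein, all higher in Adam17 ex/ex (5.85% of all genes). That count was 2 without WT cerulein library 1 or 3 or Adam17 ex/ex cerulein library 2, and 3 without Adam17 ex/ex cerulein library 1; without WT cerulein library 1 the 2 higher duct calls became 0. The summed macrophage and neutrophil markers were 57.5 to 422 CPM in WT PBS, 143 to 231 in WT cerulein, 135 to 935 in Adam17 ex/ex PBS and 104 to 212 in Adam17 ex/ex cerulein. Lymphocyte markers had medians of 317, 19.6, 299 and 13.4 CPM in the same order, with 4 of 12 at 0 in each cerulein group. Adipocyte markers had medians of 199, 47.9, 737 and 97.3 CPM, and fibroblast markers 355, 233, 629 and 364. The highest lymphocyte, adipocyte and fibroblast medians were in PBS groups, with wide ranges such as 28.7 to 960 CPM for lymphocyte markers in WT PBS. The part of these cell types in the Hmga1 values was not tested.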

How the data were processed

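Whole pancreas RNA (30 ng) was made into 3' libraries with a 10 bp UMI, per the labels' protocols. The authors deposited 1 table of raw UMI counts per gene, and per the submitters' processing notes the builds named are mm10 and GRCm38 and the tools R 4.1.2, limma 3.50.0 and edgeR 3.36.0. Aligner, strand and multi-mapping rules: not given in the sources used here.

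Groups, sexes and replicates were taken from the labels. Genes were filtered with filterByExpr (minimum count 10), leaving 8236 of 24019, scaled with TMM, and fitted with edgeR 4.0.16 (quasi-likelihood, R 4.3.3) on group and sex in 16 libraries (11 residual degrees of freedom). A call is a Benjamini-Hochberg adjusted p under 0.05 over all genes tested. The SE is the log2 fold change over the root of the F statistic. For the sum, the rows were added and the table refitted. Sequences came from GENCODE M21 and RefSeq, both on GRCm38, and BLAST 2.17.0 searched the transcripts. Alternatives were other scalings, filters, tools (DESeq2 1.42.0, limma-voom 3.58.1), covariates, depths and libraries.

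Members and lists were chosen with earlier results of these data known. Named genes are the members, Adam17, the 10 nearest profiles, up to 4 called members per list and comparison, fixed family members, and the genes overlapping or nearest to each copy. Checked pairs of libraries within a group differed beyond counting noise (chi-square per degree of freedom 3.06 to 9.5 over 24 pairs). The fit was tested on simulated data.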

Additional observations from a re-analysis of the deposited data

Results flagged for a closer look

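In 9 of 279 sets of 4 libraries, 1 library stood apart from its group by Dixon's criterion, where chance gives about 5%. For Hmga1b, WT cerulein library 3 was the low one at 173 CPM against 226 to 233 in the others. In the same group, Hspa1b was low in library 1 (83.2 CPM against 187 to 208) and Fos in library 2 (2.21 CPM against 4.96 to 5.43). In Adam17 ex/ex PBS the high libraries were library 2 for Gm49774 (5.16 CPM, the others at 0) and for Jun (126 CPM against 36.4 to 50.2), library 3 for Nrip3 (4.02 CPM, the others at 0) and Eppk1 (8.04 CPM against 2.02 to 2.60), and library 4 for Dcxr (24.2 CPM against 12.9 to 14.1). H1f0 was low in WT PBS library 2 (127 CPM against 184 to 191).

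By the edgeR interaction test, 7 of 10 tested duct markers passed, all lower, and 2 of 17 acinar markers, both higher (6.02% of all genes). The other lists held no call. Genes were named in part for being called, so those given here are examples. The rise was smaller in Adam17 ex/ex for the duct markers Krt18 (interaction log2 fold change -1.78, edgeR adjusted p = 0.000229), Krt8 (-1.23, adjusted p = 0.0121) and Epcam (-0.92, adjusted p = 0.0476). For Dcxr, a neighbour of Hmga1b, the interaction was positive (1.99, edgeR adjusted p = 0.0193), the gene having fallen in WT. That call was lost without WT cerulein library 3 (adjusted p = 0.0584) or Adam17 ex/ex cerulein library 3 (0.0596). The Epcam call was lost in 18 of 29 alternatives, among them leaving out any 1 library other than WT PBS library 2 and Adam17 ex/ex PBS library 2. Cldn4 (-3.92) and Krt19 (-2.08), both among the 7 duct markers, are also among the 10 genes picked for a profile like that of Hmga1. Their difference is therefore a description. The same holds for Slc26a9 (-3.54), Hspb1 (-2.16), Hspa1b (-4.94) and Hspa1a (-2.80), named for that likeness alone and given no test.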

How the results depend on the processing

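Under up to 14 other settings and 16 fits without 1 library, both copies and their sum kept a log2 fold change above 4 with cerulein in WT and below -3 between genotypes under cerulein. Thinning all libraries to the shallowest gave Hmga1 6.10 in WT, 2.21 under PBS and -6.01 for the interaction, and the sum -5.12 for the interaction. It also gave negative cerulein responses in Adam17 ex/ex, -0.50 for Hmga1b and -0.24 for the sum. Without Adam17 ex/ex PBS libraries 1 to 3, Hmga1 had 1.14 in Adam17 ex/ex, 0.27 under PBS and -3.85 for the interaction. The lone library left there is assumed to vary like the other groups. In females only, a choice made after seeing the data, the sum had 0.65 in Adam17 ex/ex. Without 1 library, values in Adam17 ex/ex ranged from -0.16 to 0.65 for Hmga1b and from 0.028 to 0.683 for the sum, highest without Adam17 ex/ex PBS library 3. The cause was not tested.

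Genes of all lists called under PBS numbered 1, and 2 with RLE factors, without digestive enzyme genes in the scaling or with a mean of at least 10 UMIs, 17 with no filter, 5 by DESeq2, 10 without the sex term, and 0 with only 2 groups, without the 3 shallow libraries or in females. For the interaction they numbered 9, and 23 with no filter, 3 without the shallow libraries and 3 in females. In Adam17 ex/ex they were 64, and 34 without the shallow libraries and 42 in females. Between genotypes under cerulein they were 23, and 10 in females. Without 1 library the ranges were 0 to 7 under PBS, 5 to 12 for the interaction (5 without WT cerulein library 3 or Adam17 ex/ex cerulein library 2), 41 to 66 in Adam17 ex/ex (41 without PBS library 3) and 12 to 25 between genotypes (12 without WT cerulein library 1, 15 without library 3).

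Over all genes, 112 were called under PBS, and 406 without the sex term, 331 with no filter, 232 by DESeq2, 61 thinned, 22 in females, 15 without the shallow libraries, 14 with 2 groups, and 30 to 370 without 1 library. Thinned, the calls were 2118 in WT, 1542 in Adam17 ex/ex, 443 between genotypes and 281 for the interaction, against 3388, 2493, 799 and 496. Without the shallow libraries 1360 were called in Adam17 ex/ex and 152 for the interaction, and in females 1422, 82 for the interaction and 273 between genotypes. Without 1 library the lowest counts were 402 between genotypes (WT cerulein library 1) and 239 for the interaction (Adam17 ex/ex cerulein library 2). Of 118 calls of named genes, 75 were lost nowhere. The topoisomerase gene Top2b turned in Adam17 ex/ex, to 0.25, without the shallow libraries.

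Replicate numbers are shared across groups, but same-numbered libraries correlated from -0.22 to 0.24 over 24 pairs, and 12 of 48 correlated best with their own number. With the replicate block, 230 genes and 4 list members were called under PBS, and 3333 genes in WT. The sum then had 4.63 in WT and -3.60 between genotypes under cerulein. The interaction has no fit within 2 groups, and Hmga1b none where both copies share 1 row.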
